A study of Caenorhabditis elegans with 8 samples.

Results

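The flp and nlp genes of Caenorhabditis elegans encode precursors of neuropeptides, and 71 of them were measured. They were taken as the rows of the embryo and L1 count tables whose gene symbol is flp or nlp followed by a hyphen and a number, which gave 30 flp and 41 nlp genes among 16606 genes in either table. Of these, 61 were in the embryo table (27 flp, 34 nlp, of 13692 genes), 70 in the L1 table (30 flp, 40 nlp, of 16249 genes) and 60 in both (27 flp, 33 nlp, of 13335 genes). RNA was sequenced from mixed-stage embryos and from larvae of the first stage (L1) in the laboratory wild type N2 and in the strain FAS43, with 2 libraries in each of the 4 groups, all grown at 20 °C. FAS43 is mutated in the genes for the replacement histone H3.3: the alleles are uge44 at his-69&his-70 and tm2066 at his-72, both on chromosome III, ok2289 at his-71 on X, and uge18 at his-74 on V. The RNA is from whole animals, and the embryo samples mix embryonic ages. Nothing in the labels ties a group's libraries to different cultures. The p-values set the difference between groups against the spread of these libraries within groups. That spread may therefore be only technical.

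Neuropeptides are short signals cut from larger precursor proteins in the secretory pathway, packed into dense core vesicles and released by neurons and some other cells, mostly to act on G protein-coupled receptors. The flp precursors hold FMRFamide-like peptides, which end in an arginine and an amidated phenylalanine. The nlp genes are a mixed group of other precursors: many act between neurons, whereas a set rich in glycine and tyrosine, which includes nlp-29 and nlp-31, is made in the epidermis and is known for antimicrobial peptides induced by fungal infection and wounding.

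All 71 genes were matched by gene ID to the Ensembl annotation of WBcel235, the build of the deposited tables. They were short: the median length of the merged exons was 644.5 bases for flp and 552 bases for nlp genes, against 1340 bases for the 15438 protein-coding genes of either table. Of the 30 flp genes 13 lay on the X chromosome (43.3%), against 8 of 41 nlp genes (19.5%) and 14.9% of the protein-coding genes. Chromosome V held 14 nlp genes (34.1%, against 21% of the protein-coding genes), and 10 of these were among the 11 genes from nlp-24 to nlp-34. A run of 6 of those genes sat side by side on chromosome V, from nlp-34 (bases 3978825 to 3979134) through nlp-31 (3980055 to 3980622), nlp-30 (3981980 to 3982741), nlp-29 (3984425 to 3984847) and nlp-28 (3987900 to 3988316) to nlp-27 (3989378 to 3989770). Exons of 12 of the 71 genes shared 5 to 88 bases with a coding gene on the other strand. How reads over these few shared bases were counted depends on the strand setting, which is not given. The annotation names 4 of the genes otherwise: nlp-37, nlp-38 and nlp-42 are pdf-2, mihp-1 and mihp-2 there, and nlp-10 is spelled npl-10.

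The libraries held 17408914 to 30127179 counts. Levels are given as CPM, the counts of a gene scaled to library size with TMM factors, computed within each stage. The H3.3 genes his-71 and his-72 were at 89.8 to 2213 CPM in N2 and at 0.0943 to 7.55 CPM in FAS43 over both stages. The allele of his-74 did not lower its counts, at 63.5 to 82.4 CPM in its embryos against 47.0 and 134 CPM in those of N2. The next 3 libraries stood apart in ways that touch the neuropeptide genes. Over 12 of 14 oocyte and early embryo markers listed in embryos, none of them at 0, the summed level was lowest in FAS43 embryo replicate 1 (968 CPM, against 1283 to 2696 CPM in the other embryo libraries). In L1 the sum over 13 of the 14 was highest in FAS43 L1 replicate 1 (1115 CPM, against 129.99 to 394 CPM in the other L1 libraries), as was that over 10 late embryo matrix markers (3290 CPM, against 370.5 to 1740.4 CPM). In N2 L1 replicate 2, short genes were counted more and long genes less than in N2 L1 replicate 1: the median log2 ratio of the replicates ran from 0.71 for exons of up to 500 bases to -1.24 for those over 4000 bases, against 0.11 to -0.06 between the FAS43 L1 replicates. The N2 embryo replicates differed with length in the opposite order, from -0.32 (up to 500 bases) and -0.51 (500 to 1000 bases) to 0.63 (over 4000 bases), while the median of the 61 flp and nlp genes there was 0.99. Results that change are given without these libraries.

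Embryos held little RNA of most of these genes. The median over the 27 flp genes was 1.70 CPM (means of the 4 embryo libraries), and no flp gene reached a mean of 10 CPM. The median over the 34 nlp genes was 2.26 CPM, and 5 of them were at 10 CPM or more. Raw counts of the flp genes in an embryo library ran from 1 to 299 with a median of 37.5, so single-gene values rest on few reads. The highest embryo levels were those of nlp-31 and nlp-36.

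**Figure D1:**
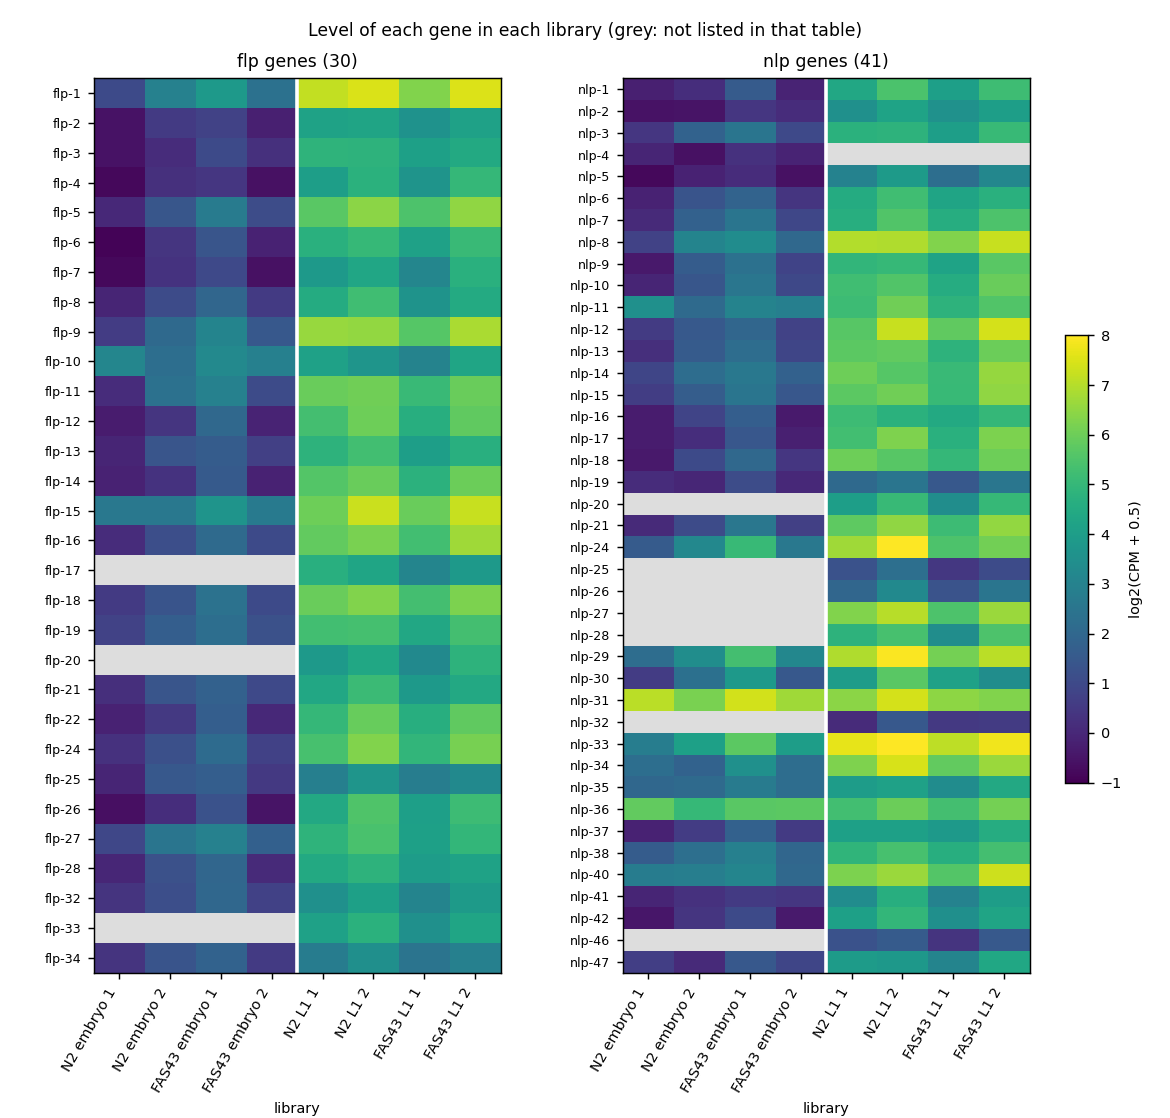
Level of each of the 30 flp and 41 nlp genes in each of the 8 libraries, as log2(CPM + 0.5), colour scale at the right; rows are genes, columns are libraries, and grey cells are genes not listed in the table of that stage. Most rows are dark in the 4 embryo columns and bright in the 4 L1 columns, while nlp-31 and nlp-36 are bright in all 8.

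Per kilobase of exon, the highest embryo level was that of nlp-31, an epidermal precursor of antimicrobial peptides, with a mean of 263 CPM per kb. Its libraries were at 133 and 72.4 CPM in N2 and 166 and 103.5 CPM in FAS43, and the strains overlapped. The next was nlp-36, at 136 CPM per kb, with 56.04 and 32.5 CPM in N2 and 50.8 and 52.4 CPM in FAS43. The genes nlp-33, nlp-29 and nlp-24 followed with 66.9, 43.7 and 33.2 CPM per kb, and each was far higher in FAS43 embryo replicate 1 than in the other 3 libraries. Among flp genes flp-15, whose peptides act on the receptor NPR-3, was highest in embryos at 16.2 CPM per kb (5.59 and 5.55 CPM in N2 and 11.97 and 5.91 CPM in FAS43). Then came flp-10, whose peptides act on the receptor EGL-6 in egg laying, at 10.5 CPM per kb (8.34 and 4.32 CPM in N2 and 8.96 and 6.99 CPM in FAS43). With flp-14 and flp-15 it was 1 of 3 flp genes whose lowest embryo library was not N2 replicate 1. The next 3, flp-1, flp-27 and flp-9, were at 9.99, 7.68 and 5.88 CPM per kb. The libraries of flp-1 had 1.53 and 7.19 CPM in N2 and 14.1 and 4.63 CPM in FAS43, and those of flp-27 had 1.38 and 5.16 CPM in N2 and 7.26 and 2.91 CPM in FAS43. Those of flp-9 had 1.005 and 3.68 CPM in N2 and 7.92 and 2.28 CPM in FAS43. In all 3 the range of the FAS43 libraries overlapped that of N2, and FAS43 replicate 1 was the highest.

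In L1 larvae every listed member had at least 18 counts in each library, and the median level was 27.1 CPM over the 30 flp genes and 33.1 CPM over the 40 nlp genes (42.3 and 53.6 CPM per kb). The highest L1 levels per kb were those of genes between nlp-24 and nlp-34. For nlp-33 the mean was 653 CPM per kb, with 205 and 332 CPM in N2 and 137 and 225 CPM in FAS43. Means of 404, 385, 326 and 281 CPM per kb belonged to nlp-29, nlp-34, nlp-24 and nlp-27. Of the nlp genes outside that group, the highest was nlp-12, the cholecystokinin-like precursor made by the stretch-sensing neuron DVA, at 242 CPM per kb. Its L1 libraries had 50.6 and 151 CPM in N2 and 54.7 and 169 CPM in FAS43, with replicate 2 about as high in both strains and replicate 1 lower in both. The flp genes were led by flp-15 at 241 CPM per kb (64.5 and 153 CPM in N2 and 61.4 and 152 CPM in FAS43). Next was flp-1, a regulator of locomotion made in the AVK interneurons, at 213 CPM per kb. The libraries of flp-1 had 145 and 180.5 CPM in N2 and 77.9 and 184 CPM in FAS43, and FAS43 replicate 1 was the low one. They were followed by flp-9, flp-24 and flp-5, at 139.9, 123 and 116 CPM per kb. The libraries of flp-9 had 96.7 and 92.5 CPM in N2 and 48.4 and 117 CPM in FAS43. Those of flp-24 had 41.3 and 78.3 CPM in N2 and 29.9 and 70.5 CPM in FAS43, and those of flp-5 had 51.5 and 86.4 CPM in N2 and 44.3 and 90.5 CPM in FAS43. In each of the 4 genes after flp-15 the strains overlapped and FAS43 replicate 1 was the lowest library. The lowest L1 levels were those of nlp-46, nlp-32 and nlp-25, at 4.29, 3.07 and 1.31 CPM per kb.

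**Figure D2:**
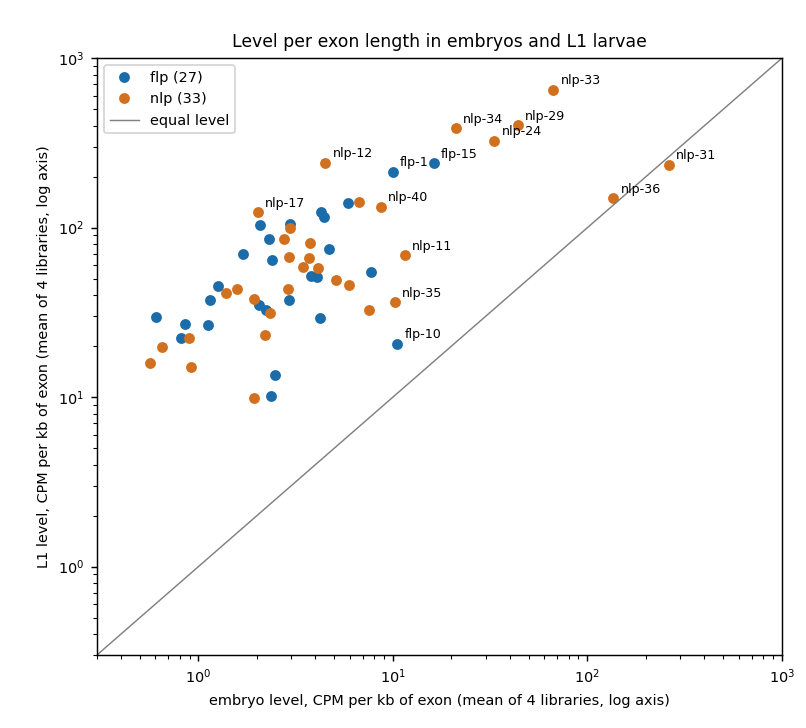
Mean level in L1 (vertical) against mean level in embryos (horizontal), both as CPM per kilobase of exon over 4 libraries of both strains and on log axes, for the 27 flp and 33 nlp genes in both tables; the line marks equal levels. All but nlp-31 lie above the line, with nlp-36 close to it and nlp-33 highest in L1.

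L1 larvae were compared with embryos within each strain, and log2 changes are given ± SE. In N2 nearly all of them were higher in L1: 26 of 27 flp and 31 of 33 nlp genes rose (edgeR quasi-likelihood test, adjusted p under 0.05), and 0 fell. Of all 13335 shared genes, 22.6% rose and 16.2% fell (38.8% called either way). At an unadjusted p under 0.05 there were 26 flp and 31 nlp genes, against 49.1% of all genes. The median log2 fold change was 5.43 over the flp genes (43.1-fold) and 4.89 over the nlp genes (29.7-fold), against 0.00 over all genes. The lowest change in both families was positive, as for 50.0% of all genes. In 27 of 27 flp and 31 of 33 nlp genes both L1 libraries lay above both embryo libraries, which held for 34.3% of all genes, and the reverse held for 0 of them and for 39.8% of all genes. In whole animals more cells of a type and more RNA per cell cannot be told apart, here or in the results that follow. The sum over 12 neuron markers was 630.3 and 603 CPM in N2 embryos and 1308 and 791 CPM in N2 L1, and their median log2 change was 1.98. Less that median, the flp and nlp medians were 3.45 and 2.91. Relative to the summed level of the markers they were 4.66 and 4.13.

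The flp genes with the smallest p in N2 showed what such a change looked like in single libraries. The gene flp-16 went from 0.596 and 1.76 CPM in embryos to 56.5 and 72.1 CPM in L1, a log2 change of 5.97 ± 0.85 with an edgeR adjusted p of 0.000224. For flp-18, whose peptides act on the receptors NPR-1, NPR-4 and NPR-5 in foraging and fat storage, the libraries had 0.931 and 2.04 CPM in embryos and 61.1 and 77.6 CPM in L1 (log2 change 5.73 ± 0.82). For flp-14 they had 0.410 and 0.759 CPM in embryos and 47.8 and 60.6 CPM in L1 (log2 change 6.71 ± 0.97). In each of these the stages were wide apart and N2 embryo replicate 1 was the lowest of the N2 libraries. The largest log2 change was that of flp-12, 6.75 ± 1.04, from 0.298 and 0.799 CPM in embryos to 39.6 and 64.3 CPM in L1. The gene flp-26 had 0.149 and 0.639 CPM in embryos and 21.1 and 45.3 CPM in L1 (log2 change 6.59 ± 1.12), from only 4 and 16 embryo counts, so its fold rests on few reads. A log2 change of 6.33 was measured for flp-3 (0.186 and 0.599 CPM in embryos and 28.1 and 27.7 CPM in L1) and one of 6.27 for flp-22 (0.410 and 0.919 CPM in embryos and 30.996 and 59.3 CPM in L1). Genes abundant in L1 rose as well. The level of flp-1 was 1.53 and 7.19 CPM in embryos and 145 and 180.5 CPM in L1, a log2 change of 5.43 ± 0.85. That of flp-9 was 1.005 and 3.68 CPM in embryos and 96.7 and 92.5 CPM in L1 (log2 change 5.54). Similar changes were those of flp-5, whose peptides excite the pharynx (0.521 and 2.16 CPM in embryos and 51.5 and 86.4 CPM in L1, 5.89), and flp-24, which acts in stress-induced sleep from the ALA neuron (0.708 and 1.80 CPM in embryos and 41.3 and 78.3 CPM in L1, 5.77).

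Among the nlp genes nlp-17 had the largest log2 change in N2, 7.10 ± 1.03, from 0.298 and 0.639 CPM in embryos to 38.1 and 75.8 CPM in L1 (edgeR adjusted p 0.000231). The smallest p belonged to nlp-2, which encodes RPamide peptides of the gonadotropin-releasing hormone type, at 0.186 and 0.200 CPM in embryos and 10.99 and 17.9 CPM in L1 (log2 change 6.36 ± 0.92). For nlp-21, a precursor often tagged to follow dense core vesicle release, the libraries had 0.559 and 1.60 CPM in embryos and 53.7 and 89.8 CPM in L1 (log2 change 6.25). All 3 had embryo libraries that did not approach the L1 values. The cholecystokinin-like nlp-12 had 0.968 and 2.36 CPM in embryos and 50.6 and 151 CPM in L1 (log2 change 6.11 ± 0.90). The olfactory precursor nlp-1, released by the AWC neuron, had 0.372 and 0.639 CPM in embryos and 20.4 and 43.3 CPM in L1 (log2 change 6.15). For nlp-15, an orcokinin-like precursor, the values were 1.04 and 2.68 CPM in embryos and 53.1 and 65.7 CPM in L1 (log2 change 5.19). In each of these the lower L1 library was over the higher embryo library by a wide margin. The libraries of nlp-18 had 0.261 and 1.52 CPM in embryos and 63.4 and 49.8 CPM in L1 (log2 change 6.19), and those of nlp-13 had 0.670 and 2.48 CPM in embryos and 52.2 and 57.4 CPM in L1 (5.32). In the group from nlp-24 to nlp-34, nlp-34 had 4.32 and 3.04 CPM in embryos and 77.1 and 174 CPM in L1 (log2 change 5.25 ± 0.76), and nlp-33 had 6.48 and 16.98 CPM in embryos and 205 and 332 CPM in L1 (log2 change 4.71 ± 0.76). The smallest changes that were still called were those of nlp-35 (2.30), flp-34 (2.78) and nlp-11 (2.92).

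The genes not called in N2 were 3. The level of nlp-31 was 133 and 72.4 CPM in embryos and 86.7 and 172 CPM in L1, so that the stages overlapped, with a log2 change of 0.48 ± 0.57 and an edgeR adjusted p of 0.512. The same overlap was seen for nlp-36 (56.04 and 32.5 CPM in embryos and 38.3 and 62.6 CPM in L1, log2 change 0.34 ± 0.57). For flp-10 both L1 libraries were above both embryo libraries (8.34 and 4.32 CPM in embryos and 17.3 and 12.3 CPM in L1), but the log2 change of 1.37 ± 0.74 had an edgeR adjusted p of 0.146. These 3 genes were all among the members with the highest embryo levels per kb. With all 8 libraries kept, 26 flp and 31 nlp genes were called under each other scaling and filter, with DESeq2 and with a replicate block. Over all genes these fits called 2663 to 3374 higher. Some flp and nlp genes lost their call in fits that leave 1 library in a group, and the share of all genes that did so was not computed. The size depended more on the embryo replicates, with an flp median of 4.69 without N2 embryo replicate 1 and 6.65 without N2 embryo replicate 2, and an nlp median of 5.93 without the latter. Without N2 L1 replicate 2 the medians were 5.22 and 4.54.

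**Figure D3:**
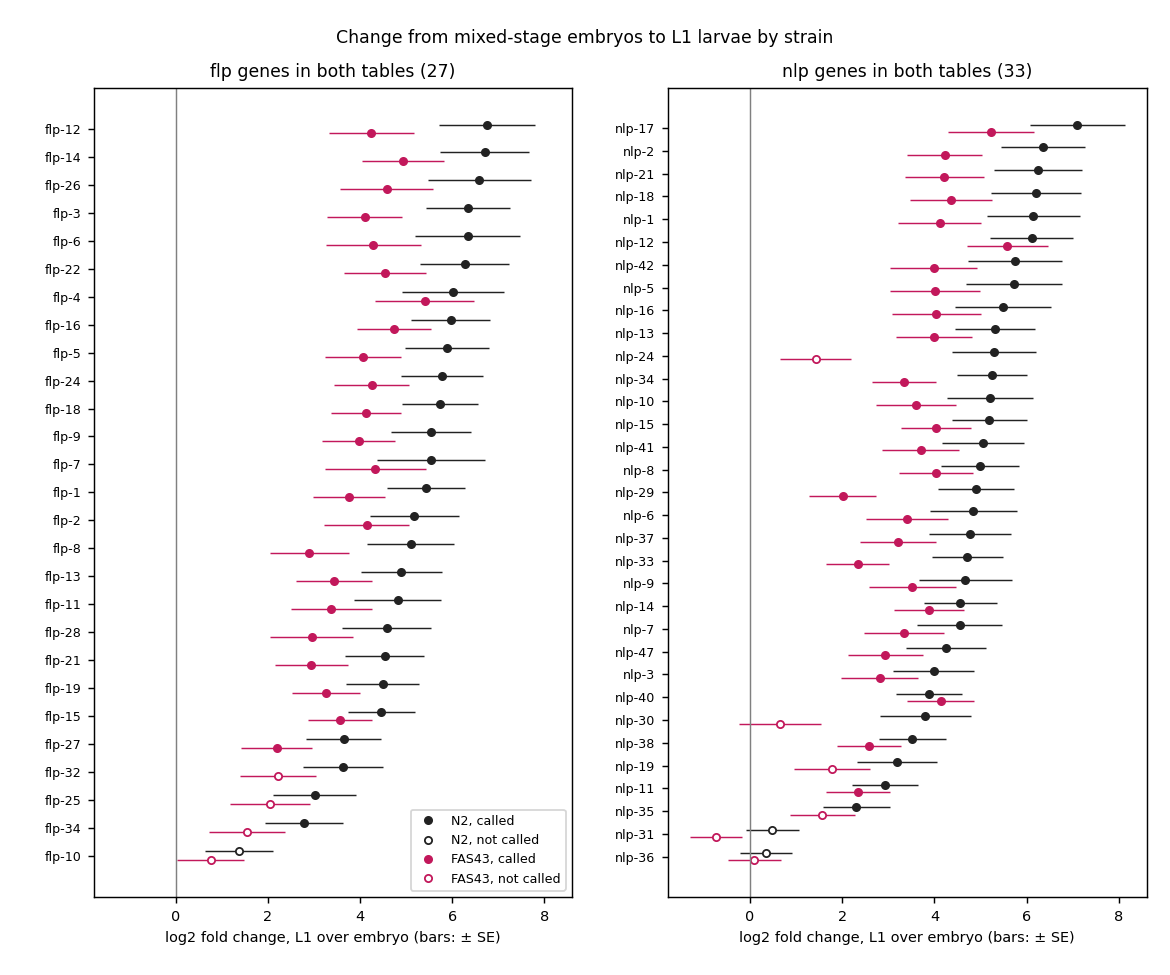
Log2 fold change of L1 over embryo (horizontal axis) for the 27 flp and 33 nlp genes in both tables, in N2 (black) and FAS43 (magenta), with bars of 1 standard error; filled points are called by edgeR and open points are not. In N2 all points but those of flp-10, nlp-31 and nlp-36 are filled, and in FAS43 10 are open.

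FAS43 showed the same direction, with 23 of 27 flp and 27 of 33 nlp genes called higher and 0 called lower by edgeR. Over all genes 15.8% rose and 9.66% fell (25.5% called either way). That is 2113 higher and 1288 lower, against 2498 and 602 when scaled on genes within the exon lengths of the flp and nlp genes, which gave 24 flp and 28 nlp genes called higher. At an unadjusted p under 0.05 there were 25 flp and 29 nlp genes, against 39.9% of all genes. A positive change was fitted for 27 flp and 32 nlp genes, against 49.2% of all genes. The median log2 change was 3.97 over the flp genes (15.6-fold) and 3.52 over the nlp genes (11.5-fold), against -0.03 over all genes. In 26 of 27 flp and 30 of 33 nlp genes both L1 libraries lay above both embryo libraries, against 36.9% of all genes. The others were flp-10, nlp-30, nlp-36 and nlp-31. Of these nlp-31 was at 166 and 103.5 CPM in embryos and 88.2 and 78.1 CPM in L1, where both L1 libraries lay below both embryo libraries, as for 32.4% of all genes. Its log2 change of -0.74 ± 0.57 was not called (edgeR adjusted p 0.343).

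The smallest p in FAS43 was that of nlp-12, at 3.39 and 1.20 CPM in embryos and 54.7 and 169 CPM in L1, with a log2 change of 5.58 ± 0.88 and an edgeR adjusted p of 0.00113. Among flp genes it was flp-16, with 3.77 and 1.52 CPM in embryos and 38.5 and 104.4 CPM in L1 (log2 change 4.73 ± 0.80). For nlp-40, a peptide secreted by the intestine that times defecation, the libraries had 7.97 and 3.63 CPM in embryos and 47.7 and 158 CPM in L1 (log2 change 4.14 ± 0.73). In N2 nlp-40 had 6.44 and 6.79 CPM in embryos and 73.9 and 100.1 CPM in L1 (log2 change 3.89 ± 0.72), so it was the 1 gene of the 60 whose fitted change was not smaller in FAS43. For flp-14 the libraries had 2.40 and 0.399 CPM in embryos and 26.8 and 62.1 CPM in L1 (log2 change 4.93 ± 0.88). For flp-22 they had 2.73 and 0.519 CPM in embryos and 24.4 and 54.9 CPM in L1 (log2 change 4.55 ± 0.89), and for flp-18, 4.76 and 1.52 CPM in embryos and 39.4 and 74.3 CPM in L1 (log2 change 4.13 ± 0.76). In these genes the stages did not overlap, and FAS43 replicate 1 was the higher embryo and the lower L1 library. The level of nlp-17 was 2.22 and 0.359 CPM in embryos and 25.7 and 74.6 CPM in L1 (log2 change 5.23 ± 0.94). The largest flp change was that of flp-4, 5.40 ± 1.07, at 0.849 and 0.160 CPM in embryos and 12.2 and 31.5 CPM in L1. The level of flp-26 was 1.89 and 0.200 CPM in embryos and 16.6 and 35.6 CPM in L1 (log2 change 4.58 ± 1.01). The embryo values of flp-4 and flp-26 rest on few counts. The sleep peptide flp-24 had 3.96 and 1.16 CPM in embryos and 29.9 and 70.5 CPM in L1 (log2 change 4.25 ± 0.82). For flp-15 the libraries had 11.97 and 5.91 CPM in embryos and 61.4 and 152 CPM in L1 (log2 change 3.56 ± 0.70), and for flp-3, 1.51 and 0.679 CPM in embryos and 16.996 and 21.7 CPM in L1 (log2 change 4.11 ± 0.82). Each of these 3 was called. The libraries of flp-9 had 7.92 and 2.28 CPM in embryos and 48.4 and 117 CPM in L1 (log2 change 3.97 ± 0.80), and those of flp-5 6.13 and 1.64 CPM in embryos and 44.3 and 90.5 CPM in L1 (log2 change 4.06 ± 0.83). Of the orcokinin-like precursors, nlp-15 had 5.19 and 2.24 CPM in embryos and 33.2 and 90.3 CPM in L1 (log2 change 4.03 ± 0.77) and nlp-14 had 5.61 and 2.99 CPM in embryos and 33.7 and 94.4 CPM in L1 (log2 change 3.89 ± 0.76). In all 4 the lower L1 library was above the higher embryo library. The level of nlp-8, which acts in stress-induced sleep, was 9.90 and 3.63 CPM in embryos and 77.2 and 150.2 CPM in L1 (log2 change 4.03 ± 0.80). That of nlp-2 was 0.849 and 0.599 CPM in embryos and 11.1 and 16.2 CPM in L1 (log2 change 4.23 ± 0.81), and that of nlp-21 was 5.47 and 1.12 CPM in embryos and 35.6 and 91.96 CPM in L1 (log2 change 4.22 ± 0.85). These were called too, and the same held for nlp-18 and nlp-13. The former had 3.63 and 0.838 CPM in embryos and 31.5 and 64.4 CPM in L1 (log2 change 4.36 ± 0.89) and the latter 4.20 and 1.36 CPM in embryos and 27.96 and 62.9 CPM in L1 (log2 change 3.99 ± 0.82). The 10 genes not called were flp-10, flp-25, flp-32, flp-34, nlp-19, nlp-24, nlp-30, nlp-31, nlp-35 and nlp-36.

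In every called FAS43 gene named here the high embryo library was replicate 1. The calls of FAS43 rest on few libraries. Fewer flp and nlp genes were called without FAS43 embryo replicate 2 or FAS43 L1 replicate 2, and fewer of all genes too. Such a fit leaves 1 library in a group, so only the sizes are given. The flp and nlp medians were 3.26 and 2.80 without FAS43 embryo replicate 2, and 3.08 and 2.78 without FAS43 L1 replicate 2. They were 5.12 and 4.68 without FAS43 embryo replicate 1, and 4.29 and 4.09 without FAS43 L1 replicate 1. With all 8 libraries kept, other scalings and filters, DESeq2 and a replicate block called 22 to 25 flp and 25 to 28 nlp genes. Over all genes these fits called 1523 to 2712 higher.

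Genes listed for peptide processing and release and for peptide receptors were also more often higher than lower in L1. In N2, 9 of 20 genes for peptide processing and dense core vesicle release rose and 0 fell (median log2 change 1.68), against 22.6% of all genes that rose. The change was negative in 5 of the 20, lowest for nep-1 (-1.36, not called). Among those that rose were 3 enzymes that act on the precursors. The level of egl-3, the proprotein convertase that cuts precursors, was 9.91 and 29.3 CPM in embryos and 671 and 345 CPM in L1 (log2 change 4.89 ± 0.76). That of egl-21, the carboxypeptidase that trims the cut ends, was 4.54 and 19.8 CPM in embryos and 482 and 423 CPM in L1 (log2 change 5.42 ± 0.82). The amidating enzyme pghm-1 had 3.31 and 6.75 CPM in embryos and 214 and 231 CPM in L1, a log2 change of 5.65 ± 0.75 and an edgeR adjusted p of 0.000158. All 3 changes were at or over the nlp median of 4.89. For sbt-1, a chaperone of the convertase, the log2 change was 4.34. The release factor unc-31 had 5.96 and 20.1 CPM in embryos and 114 and 17.6 CPM in L1 (log2 change 2.53 ± 0.79), and its 2 N2 L1 libraries differed more than those of egl-21. Of 55 neuropeptide receptor genes in both stages (82 listed) 39 rose and 0 fell (median 2.83), among them npr-16 (0.372 and 0.360 CPM in embryos and 11.7 and 10.6 CPM in L1, log2 change 5.07 ± 0.86). The receptor npr-11, through which the NLP-1 peptide acts, had 8.30 and 3.92 CPM in embryos and 2.06 and 2.35 CPM in L1, with a log2 change of -1.33 ± 0.73 that was not called (edgeR adjusted p 0.154). Of 7 precursors with other names 3 were listed under those names in both stages, and all 3 rose: pdf-1 by 6.2, snet-1 by 6.42 and the vasopressin-like ntc-1 by 4.76. The list of 7 includes pdf-2, which is counted here as nlp-37. Of the 12 neuron markers 7 rose and 1, unc-119, fell (-1.58). In FAS43 the counts were 12 of 20 for processing, 38 of 55 for receptors and 2 of 3 for the other precursors, against 15.8% of all genes, and 5 of 12 neuron markers rose and 1 fell. There egl-3 was at 22.2 and 14.5 CPM in embryos and 369.6 and 802 CPM in L1 (log2 change 4.99 ± 0.77).

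The L1 table held 10 genes that were not in the embryo table, and every gene in a table had at least 10 counts in at least 2 of its libraries. They were flp-17, flp-20 and flp-33 together with nlp-20, nlp-25 to nlp-28, nlp-32 and nlp-46. Of these flp-20, a precursor of the touch receptor neurons, had 14.04 and 19.97 CPM in N2 and 9.06 and 27.4 CPM in FAS43. For flp-33 the values were 17.2 and 26.6 CPM in N2 and 10.9 and 18.9 CPM in FAS43. Then flp-17, made in the gas-sensing BAG neurons, had 24.8 and 19.01 CPM in N2 and 8.12 and 14.3 CPM in FAS43. The epidermal nlp-27 had 78.5 and 131 CPM in N2 and 44.7 and 101 CPM in FAS43. Its neighbour nlp-28 had 27.7 and 40.8 CPM in N2 and 10.2 and 44.3 CPM in FAS43, and nlp-20 had 16.1 and 32.8 CPM in N2 and 10.1 and 32.1 CPM in FAS43. Their embryo levels were not analysed here, so no stage change is given. The reverse case was nlp-4, listed in the embryo table alone, at 0.447 and 0.160 CPM in N2 and 0.707 and 0.439 CPM in FAS43.

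The comparison of FAS43 with N2 asks what the loss of H3.3 changes at each stage. In embryos no flp or nlp gene was called (0 of 27 and 0 of 34, edgeR), while 0.00734% of all genes were called higher and 0.0147% lower (0.022% either way). At an unadjusted p under 0.05 there were 0 flp and 3 nlp genes (0.698% of all genes), and DESeq2 also called 0. The fitted changes leaned one way all the same: 27 of 27 flp and 32 of 34 nlp genes had a positive log2 fold change, with medians of 0.95 and 0.91, against 40.1% positive and a median of -0.08 over all genes. That background turned with the scaling and filter: 58.6% of all genes were positive with library totals (median 0.07) and 63.95% with a filter on CPM (median 0.10). This lean came with 1 library, FAS43 embryo replicate 1, which was the highest of the 4 for 27 of 27 flp and 32 of 34 nlp genes (22% of all genes). N2 embryo replicate 1 was the lowest for 24 and 25 of them (26% of all genes).

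Without FAS43 embryo replicate 1 the medians were -0.13 and -0.04, and 8 flp and 15 nlp genes were positive. Without N2 embryo replicate 1 the medians were 0.47 and 0.60, without N2 embryo replicate 2 they were 2.25 and 2.17, and without FAS43 embryo replicate 2 they were 1.82 and 1.67. The low sum of oocyte and early embryo markers in FAS43 embryo replicate 1, given above, did not hold for each marker. Of the 12 listed, 7 were lowest in that library and 5 in N2 embryo replicate 2. All 8 late embryo matrix markers were highest in N2 embryo replicate 2. Their sum was 5359 and 7983 CPM in N2 and 5364 and 4402 CPM in FAS43. The sum over the 12 neuron markers was not highest in FAS43 embryo replicate 1 (599.6 CPM, against 552 to 630.3 CPM). Still, 6 of the 12 neuron markers were highest in that library and 8 were lowest in N2 embryo replicate 1, as many neuropeptide genes were. Of these, ric-4 had 8.68 and 23.6 CPM in N2 and 35.3 and 13.7 CPM in FAS43 and snt-1 had 1.79 and 9.67 CPM in N2 and 12.1 and 3.51 CPM in FAS43, while the abundant snb-1 ran the other way (336 and 171 CPM in N2 and 208 and 266 CPM in FAS43). The part of these markers in the result was not tested.

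**Figure D4:**
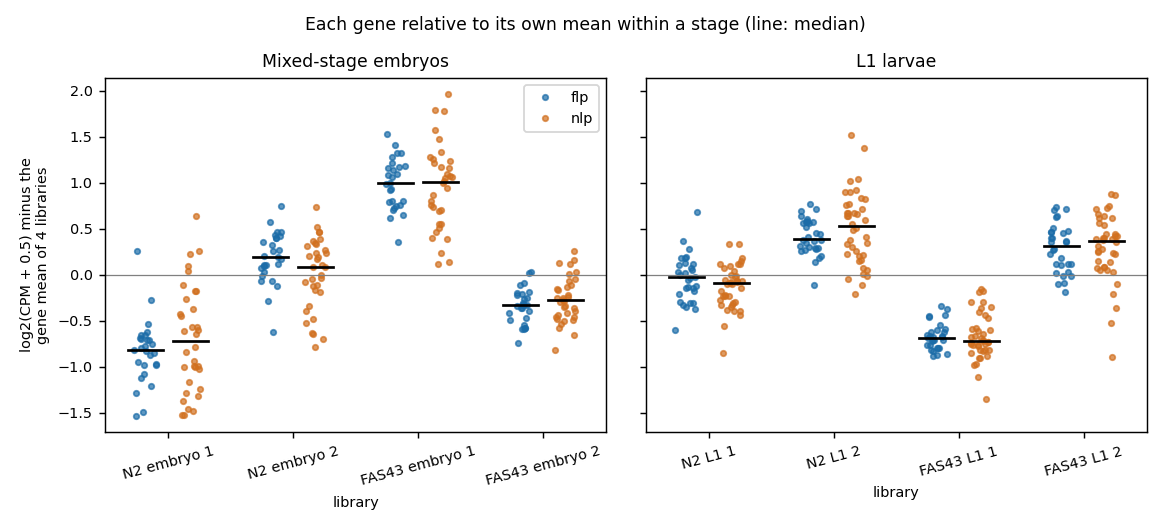
Level of each flp (blue) and nlp (orange) gene in a library relative to its own mean over the 4 libraries of the stage, as a difference of log2(CPM + 0.5), with a line at the median; points are genes. FAS43 embryo replicate 1 lies 1.00 (flp) and 1.007 (nlp) above the gene means, and FAS43 L1 replicate 1 lies at -0.68 and -0.72.

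The flp genes with the smallest unadjusted p in embryos were flp-12, flp-5 and flp-6. The libraries of flp-12 had 0.298 and 0.799 CPM in N2 and 3.58 and 0.439 CPM in FAS43, a log2 change of 1.86 ± 0.96 with an unadjusted p of 0.0526 and an edgeR adjusted p of 0.9999. For flp-5 they had 0.521 and 2.16 CPM in N2 and 6.13 and 1.64 CPM in FAS43 (log2 change 1.53 ± 0.91), and for flp-6, 0.0372 and 0.799 CPM in N2 and 2.12 and 0.399 CPM in FAS43 (log2 change 1.58 ± 0.98). In all 3 the second FAS43 library lay between the N2 libraries, and without FAS43 embryo replicate 1 the changes of flp-12 and flp-6 were -0.32 and -0.06. The 3 nlp genes with an unadjusted p under 0.05 all lay between nlp-24 and nlp-34. The libraries of nlp-24 had 2.53 and 8.71 CPM in N2 and 33.3 and 5.51 CPM in FAS43 (log2 change 1.79 ± 0.77, edgeR adjusted p 0.9999). Those of nlp-29 had 4.13 and 10.1 CPM in N2 and 39.3 and 8.46 CPM in FAS43 (log2 change 1.75 ± 0.75), and those of nlp-33, 6.48 and 16.98 CPM in N2 and 53.04 and 15.6 CPM in FAS43 (log2 change 1.55 ± 0.72). Again FAS43 replicate 2 lay within the range of N2, and nlp-24 had a change of -0.03 without FAS43 embryo replicate 1.

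The strains did not overlap for 2 flp genes (flp-3 and flp-15) and 4 nlp genes (nlp-2, nlp-35, nlp-41 and nlp-47), all higher in FAS43 embryos, a pattern that 3.49% of all genes showed. The reverse pattern, in 7.46% of all genes, was seen in 0 members. For nlp-2 the values were 0.186 and 0.200 CPM in N2 and 0.849 and 0.599 CPM in FAS43 (log2 change 1.88 ± 1.06), resting on 5 to 18 counts. For nlp-47, a precursor of the adipokinetic hormone type, they were 1.08 and 0.559 CPM in N2 and 2.26 and 1.36 CPM in FAS43 (log2 change 1.13 ± 0.93), and for nlp-35, 3.54 and 3.80 CPM in N2 and 6.18 and 4.19 CPM in FAS43. The authors' deposited table marked 3 nlp and 0 flp genes as significant in embryos, and its lowest adjusted p among the members was 0.9999. The marked genes, nlp-24, nlp-29 and nlp-33, were the members whose unadjusted p in that table was under 0.05.

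In L1 larvae 0 of 30 flp and 0 of 40 nlp genes were called between FAS43 and N2 (edgeR, with 0.00621% of all genes called higher and 0.0124% lower, 0.0186% either way), and DESeq2 called 0. At an unadjusted p under 0.05 there were 0 flp and 2 nlp genes (3.37% of all genes). Here the lean was the other way and smaller: 26 of 30 flp and 32 of 40 nlp genes had a negative log2 change, with medians of -0.30 and -0.23, against 49.7% positive and a median of -0.00 over all genes. FAS43 L1 replicate 1 was the lowest library for 30 of 30 flp and 34 of 40 nlp genes (28.4% of all genes). N2 L1 replicate 2 was the highest for 18 and 22 of them (31.9% of all genes). Without FAS43 L1 replicate 1 the medians were 0.08 and 0.18, with 17 flp and 24 nlp genes positive. Without N2 L1 replicate 2 they were -0.10 and 0.018, with 12 and 22 positive and 0 nlp genes at an unadjusted p under 0.05. The lean therefore rests on these libraries: without N2 L1 replicate 1 the medians were -0.58 and -0.58, and without FAS43 L1 replicate 2 they were -0.91 and -0.88. The summed intestine and body wall muscle markers were also lowest in FAS43 L1 replicate 1 (2199.8 and 10183 CPM, against 3984 to 10460.3 and 12972 to 18921 CPM). The part of the high oocyte, early embryo and matrix markers and the low intestine and muscle markers of FAS43 L1 replicate 1, and that of the length pattern of N2 L1 replicate 2, was not tested.

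Of the flp genes flp-17 had the smallest p in L1, at 24.8 and 19.01 CPM in N2 and 8.12 and 14.3 CPM in FAS43, a log2 change of -0.97 ± 0.59 with an unadjusted p of 0.109 and an edgeR adjusted p of 0.9996. The libraries of flp-8 had 22.7 and 37.1 CPM in N2 and 11.7 and 22.1 CPM in FAS43 (log2 change -0.82 ± 0.58). Those of flp-13, which acts in stress-induced sleep from the ALA neuron, had 27.4 and 37.9 CPM in N2 and 15.9 and 25.3 CPM in FAS43 (log2 change -0.66 ± 0.56). In all 3 both FAS43 libraries lay below both N2 libraries, although the gap of flp-8 was narrow. The same was true of flp-2, flp-3, flp-11 and flp-28, so 7 flp genes and 2 nlp genes, nlp-24 and nlp-25, were lower in FAS43 without overlap. Of all genes 14.2% showed this and 12.9% the reverse, which was seen in 0 members. The opioid-like precursor nlp-24 had 105 and 276 CPM in N2 and 44.2 and 67.04 CPM in FAS43, a log2 change of -1.77 ± 0.65 with an unadjusted p of 0.0105 and an edgeR adjusted p of 0.9996. For nlp-30 the strains overlapped (15.3 and 50.9 CPM in N2 and 17.2 and 10.1 CPM in FAS43, log2 change -1.27 ± 0.61). The gene nlp-25 was low throughout (1.90 and 4.43 CPM in N2 and 0.861 and 1.58 CPM in FAS43, log2 change -1.37 ± 0.78). The authors' deposited table marked 2 nlp and 0 flp genes as significant in L1, and its lowest adjusted p among the members was 0.9998. The marked genes, nlp-24 and nlp-30, were again the members whose unadjusted p there was under 0.05.

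No gene of the processing, receptor, other precursor or neuron marker lists was called between the strains at either stage. In embryos egl-3 had 9.91 and 29.3 CPM in N2 and 22.2 and 14.5 CPM in FAS43 (log2 change -0.09 ± 0.72) and egl-21 4.54 and 19.8 CPM in N2 and 16.4 and 7.83 CPM in FAS43 (-0.01 ± 0.75). In both FAS43 lay between the N2 libraries. Of the 20 processing genes, 14 were highest in N2 embryo replicate 2 and 3, which were sbt-1, pgal-1 and pghm-1, in FAS43 embryo replicate 1. For sbt-1 the libraries had 11.1 and 21.1 CPM in N2 and 36.1 and 15.4 CPM in FAS43 (log2 change 0.68 ± 0.71). All 3 of the other precursors, pdf-1, snet-1 and ntc-1, were highest in FAS43 embryo replicate 1 and lowest in N2 embryo replicate 1 (median log2 change 1.33), and pdf-1 had 0.782 and 3.20 CPM in N2 and 7.35 and 1.72 CPM in FAS43. Of the 55 receptors 33 were highest in N2 embryo replicate 2 and 12 in FAS43 embryo replicate 1. The median of the 12 neuron markers was 0.09 in embryos and 0.10 in L1.

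The difference of the genotype effect between the stages was tested as an interaction, which is the same as the difference between the stage changes of the strains. It was called for 0 of 27 flp and 0 of 33 nlp genes by edgeR and by DESeq2 (0.0% of all genes by edgeR). At an unadjusted p under 0.05 there were 1 flp and 5 nlp genes (1.49% of all genes). All 27 flp and 32 of 33 nlp estimates were negative, with medians of -1.52 and -1.42, against 51.1% positive and a median of 0.02 over all genes. Among nlp genes the largest were those of genes between nlp-24 and nlp-34: -3.86 ± 1.12 for nlp-24 (unadjusted p 0.00272, edgeR adjusted p 0.9986), -3.16 ± 1.27 for nlp-30, -2.88 ± 1.01 for nlp-29 and -2.38 ± 0.94 for nlp-33. Among flp genes they were -2.51 ± 1.19 for flp-12, -2.23 ± 1.07 for flp-3 and -2.20 ± 1.14 for flp-8. Without FAS43 embryo replicate 1 the medians were -0.15 and -0.13, and 10 flp and 11 nlp estimates were positive. Without N2 embryo replicate 2 they were -2.60 and -2.39, without FAS43 embryo replicate 2, -2.22 and -2.11, and without FAS43 L1 replicate 2, -2.24 and -2.17. Without FAS43 L1 replicate 1 they were -1.08 and -1.07, without N2 L1 replicate 2, -1.17 and -1.17, and without N2 embryo replicate 1, -0.98 and -1.08.

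The 11 genes from nlp-24 to nlp-34 include the epidermal antimicrobial precursors and had higher levels than most other nlp genes. Their median was 235.5 CPM per kb in L1 and, over the 6 listed there, 38.5 CPM per kb in embryos, against 47.8 and 2.90 CPM per kb over the other nlp genes. Within the group the L1 levels spread from 1.31 CPM per kb for nlp-25 to 653 CPM per kb for nlp-33, neighbours on the chromosome included: nlp-30 had 32.8, nlp-31 236 and nlp-29 404 CPM per kb. In N2, 5 of the 6 rose from embryos to L1 (median log2 change 4.80), against 22.6% of all genes. In FAS43 the number was 3 of 6 (median 1.72), against 15.8% of all genes. The 3 were nlp-34 (3.33 ± 0.69), nlp-33 (2.33 ± 0.69) and nlp-29 (2.01 ± 0.73). The changes of nlp-24 and nlp-30 in FAS43 were 1.42 ± 0.78 and 0.65 ± 0.88 and were not called. Per library, nlp-24 had 33.3 and 5.51 CPM in embryos and 44.2 and 67.04 CPM in L1 in FAS43, and FAS43 embryo replicate 1 came close to the lower L1 library. For nlp-30 the same embryo library was above the second L1 library (13.7 and 2.28 CPM in embryos and 17.2 and 10.1 CPM in L1).

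**Figure D5:**
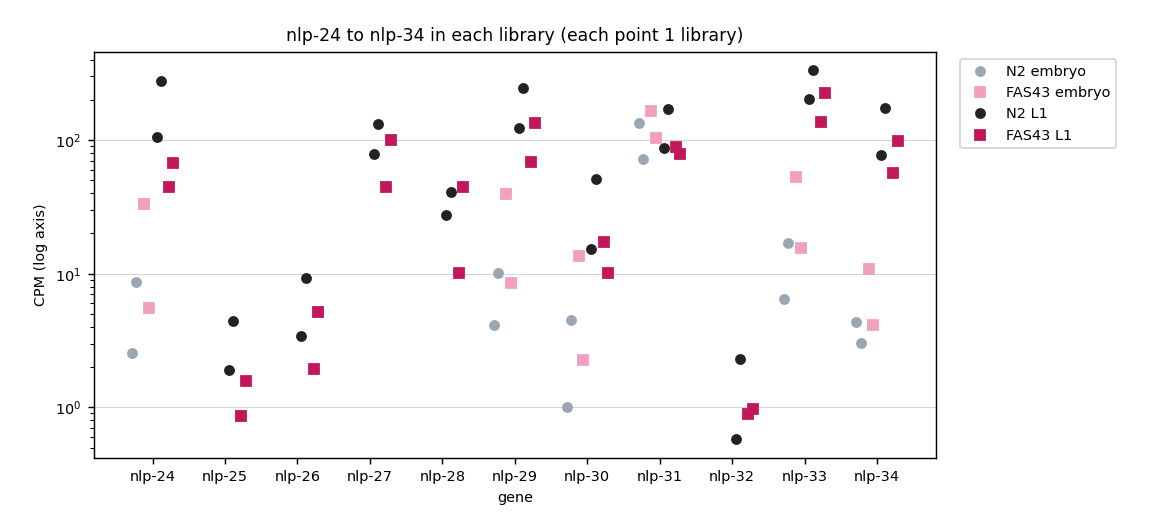
Level of the 11 genes from nlp-24 to nlp-34 in each library (CPM, log axis), with circles for N2, squares for FAS43, pale symbols for embryos and dark symbols for L1; each point is 1 library and 5 genes have no embryo points. Both FAS43 L1 points of nlp-24 lie below both of N2, and for nlp-31 the embryo and L1 points of N2 overlap.

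Between the strains, 6 of 6 of these genes had a positive change in embryos (median 1.54) and 11 of 11 a negative one in L1 (median -0.69). Of all genes 40.1% were positive in embryos and 49.7% in L1, and 0 of these genes were called at either stage. As a deviation from each gene's stage mean, the group's median log2 level was 1.67 and -0.30 in FAS43 embryos and -1.34 and -0.08 in N2 embryos. FAS43 embryo replicate 2 was thus below N2 embryo replicate 2. In L1 it was -0.82 and 0.05 in FAS43 and -0.08 and 0.90 in N2. The 4 L1 libraries of nlp-29 had 123 and 246 CPM in N2 and 68.96 and 134 CPM in FAS43 (log2 change -0.86 ± 0.64), where the higher FAS43 library exceeded the lower N2 library. Those of nlp-34 had 77.1 and 174 CPM in N2 and 56.9 and 98.6 CPM in FAS43 (log2 change -0.69 ± 0.62), and those of nlp-26 3.40 and 9.24 CPM in N2 and 1.95 and 5.17 CPM in FAS43. The low nlp-32 had 0.578 and 2.30 CPM in N2 and 0.898 and 0.978 CPM in FAS43, with N2 replicate 1 as its lowest library. The sum of 8 of 10 epidermis markers, none at 0, was not highest in the library with the highest embryo values: it was 4490.1 CPM in FAS43 replicate 1 and 3375 to 6931 CPM in the others. In L1 the sum of 10 was 4097 and 2391 CPM in N2 and 4566 and 2702 CPM in FAS43. The epidermis markers share noah-1, dpy-7, sqt-3 and rol-6 with the late embryo matrix markers, so their sums are not separate measures. Without the 11 genes from nlp-24 to nlp-34 the nlp medians between the strains were 0.85 in embryos and -0.15 in L1.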

How the data were processed

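Per the labels, total RNA (1000 ng) gave stranded mRNA libraries read over 50 bases. The authors deposited 1 table per stage with raw counts per gene; the submitters' processing notes name build WBcel235, edgeR 3.10.5, HTSeq 0.6.1 and TopHat2 2.0.13, and the strand setting is not given in the sources used here. Per the file headers the tables also hold p-values, raw and adjusted, log2 values (fold change and abundance) and a normalized signal per gene, made by the authors. Of these values only the marks of significance, the adjusted p and whether the raw p was under 0.05 are used.

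The tests used edgeR 4.0.16 (R 4.3.3) on the raw counts (TMM, filterByExpr, quasi-likelihood F-test, Benjamini-Hochberg over all genes tested, called under 0.05). FAS43 was compared with N2 within each stage (2 residual degrees of freedom). Stage changes and the interaction came from a joint fit (8 libraries, 13335 genes of both tables, 4 residual degrees of freedom), scaled over both stages; CPM levels use the sizes of their own stage, which are 0.889 to 1.14 times those. SE is the absolute log2 change over the square root of F. Alternatives were DESeq2 1.42.0, other scalings and filters, a replicate block and leaving out each library. The procedure was tested on simulated counts. Members, lists and tests were chosen with earlier results of these data known. Genes with all values given are the 5 highest per kb of exon, up to 10 called members by p (3 where 0 were called), the 4 largest changes, the 3 highest in 1 table only, and nlp-24 to nlp-34. Others named were chosen after their values were seen.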

Additional observations from a re-analysis of the deposited data

Results flagged for a closer look

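The gene flp-3 was picked out because its strains differed in opposite directions at the 2 stages: both FAS43 libraries were above both N2 libraries in embryos (0.186 and 0.599 CPM in N2 and 1.51 and 0.679 CPM in FAS43) and below both in L1 (28.1 and 27.7 CPM in N2 and 16.996 and 21.7 CPM in FAS43). The log2 changes were 1.47 ± 0.99 and -0.53 ± 0.56, and the tested difference between them was -2.23 (SE 1.07), with an unadjusted p of 0.051 and an edgeR adjusted p of 0.9986, so it was not called. The embryo values rest on 5 to 32 counts. Of all genes tested, 3.49% were higher in FAS43 without overlap in embryos and 14.2% lower in L1. The share with both was not computed, and flp-3 was chosen on these same values.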

How the results depend on the processing

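Leaving out 1 library at a time moved the medians as follows (the lone library of a group is then assumed to vary like the others). In embryos FAS43 against N2 ran from -0.13 to 2.25 (flp) and from -0.041 to 2.17 (nlp), and in L1 from -0.91 to 0.080 and from -0.88 to 0.18. L1 against embryo ran from 4.69 to 6.65 and 4.43 to 5.93 in N2, and from 3.08 to 5.12 and 2.78 to 4.68 in FAS43. The interaction ran from -2.60 to -0.15 and from -2.39 to -0.13. Calls in FAS43 ran from 4 to 24 (flp) and 3 to 27 (nlp); 14 of the named genes lost their call without FAS43 embryo replicate 2. In embryos flp-12 ran from -0.32 to 2.94, flp-6 from -0.059 to 5.09 and nlp-24 from -0.030 to 3.15. Relative to the summed neuron markers the stage medians were 4.66 and 4.13 in N2 and 2.98 and 2.53 in FAS43; less the markers' median change, chosen after seeing the data, they were 3.45 and 2.91, and 2.30 and 1.85. The cause of these moves was not tested. DESeq2 called 26 flp and 31 nlp genes in N2 and 25 and 28 in FAS43. Of all 13335 genes it called 3374 higher and 2837 lower in N2, and 2712 and 2108 in FAS43. Scaling on genes of 264 to 1732 exon bases, chosen after seeing the data, moved the median of all genes in FAS43 from -0.03 to 0.35 and its calls to 2498 higher and 602 lower (2113 and 1288 as reported), with 24 flp and 28 nlp genes called. In N2 that scaling gave 2858 higher and 1585 lower (3014 and 2157 as reported). Library totals moved the embryo median of all genes from -0.08 to 0.07, and a CPM filter to 0.10. Over genes, same-numbered replicates deviated with correlations of -0.52 (embryos) and -0.18 (L1). Such values cannot tell whether same-numbered libraries were prepared together. With the replicate block 26 flp and 31 nlp genes were called in N2, 22 and 26 in FAS43 and 0 between the strains. Over all genes that block gave 2757 higher and 1735 lower in N2, and 1854 and 1172 in FAS43. A crossed pairing called 0 members, and 16 genes higher and 2 lower over all genes in embryos, 2 and 4 in L1. Embryo depth limits the folds: 7 flp and 8 nlp genes had a library under 10 counts.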

Other observations

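The summed level of the 27 flp genes relative to the summed neuron markers was 0.0449 and 0.102 in N2 embryos and 0.200 and 0.0769 in FAS43 embryos. In L1 it was 0.779 and 1.81 in N2 and 0.664 and 1.07 in FAS43. Within N2 L1, where replicate 2 held fewer counts of long genes, the flp sum was higher in replicate 2 (1076 and 1498 CPM over all 30 genes) and the marker sum lower (1308 and 791 CPM). The part of gene length in that ratio was not tested.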
